A study of Drosophila melanogaster with 12 samples.

Results

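In the adult fly midgut, 155 genes had higher RNA levels in control males than in control females and lower levels in males whose enterocytes expressed an RNA interference construct against doublesex (dsxRNAi). They were picked from 8258 genes with a mean of at least 1 CPM (counts scaled to a common library total) over the 12 libraries, of which they make up 1.88%, in a deposited table of 17558 rows. A gene was kept when every control female library and every dsxRNAi male library lay below every control male library, and when the mean of control males was at least 1.5 times that of control females and that of dsxRNAi males, with 0.5 CPM added to each mean. Genes for glutathione transferases, accessory gland proteins, dsx itself and the hormones AstA and Tk were left out by name, which removed 7 genes that met the other criteria. Both contrasts that chose the genes are therefore given here as descriptions, without a test. The dsxRNAi females entered the choice only through the floor on the mean over 12 libraries, which all 155 genes also passed without them.

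RNA was sequenced from midguts of virgin flies of both sexes at day 10, after 6 days at 18C and 4 days at 29C, with 3 libraries for each combination of sex and genotype. All flies were y[1] v[1] / w[*] by their labels, which give the same X chromosome pair for both sexes, and all carried the driver mex1-Gal4 and tub-Gal80ts, a temperature-sensitive repressor that holds the driver silent at the lower temperature. The dsxRNAi flies carried dsxRNAi on the chromosome opposite mex1-Gal4, and the control flies carried UAS-GFP opposite tub-Gal80ts. The dsxRNAi construct and the stock it came in varied together, so that their effects cannot be told apart. The driver acts in the absorptive cells, the enterocytes, while the RNA came from whole midguts, in which fewer cells of a type and less RNA per cell cannot be told apart. The labels do not say whether replicate libraries came from separate pools of flies, so p-values measure only the spread between these libraries.

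In somatic cells of the fly, the splicing cascade of Sex-lethal and transformer sets which form of the transcription factor Doublesex is made, and the male and the female form bind the same DNA motif but act differently on target genes. The midgut itself is sexually dimorphic: its enterocytes digest and absorb food and take up, modify and export foreign and hormonal small molecules, and enteroendocrine cells release peptide hormones. Cytochrome P450 enzymes, UDP-glycosyltransferases and kinases or transferases of small molecules are the enzyme families that carry out this kind of modification.

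The targeted gene, dsx, had come down in dsxRNAi males but was still above both female groups. The level of dsx, in CPM scaled by the trimmed mean of M values (TMM, called normalised CPM from here on), was 70, 59.1 and 53.2 in the 3 control male libraries and 35.2, 43.1 and 41.2 in the 3 dsxRNAi male libraries. It was 18.6, 20.3 and 21.3 in control females and 16.5, 22.3 and 19.8 in dsxRNAi females. The male groups did not overlap, and the female groups did, with a log2 change of -0.04 and an adjusted p of 0.946. All adjusted p-values come from edgeR's quasi-likelihood test over 9686 genes with Benjamini-Hochberg adjustment, and a gene is called changed when this value is under 0.05.

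The choice of the 155 genes depended on how libraries were scaled, and this touches every value of dsxRNAi males below. The rule used CPM of the plain library totals, on which the median gene differed by a log2 value of -0.24 between dsxRNAi and control males, lower under dsxRNAi. On normalised CPM this median was -0.01. TMM factors ran from 0.865 to 1.14 over the libraries. On normalised CPM, control males still lay above control females without overlap for 153 of the 155 genes and above dsxRNAi males for 130, and 76 of the 155 met the whole rule. For CG31104, CG3739, Ect3, Prx2540-1 and Prx2540-2 the male groups overlapped through dsxRNAi male 2 alone, and for CG15343 through dsxRNAi male 1 alone. Over all genes, the overlaps were not counted by library. All levels and folds below are on normalised CPM.

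Markers of cell types also differed between the groups, those of the enterocytes included. The sum of 7 enterocyte markers in normalised CPM was 49010 to 51780 in dsxRNAi males, without overlap with the 40100 to 43730 of control males. It was 31360 to 46190 in control females and 44120 to 45810 in dsxRNAi females. The summed normalised CPM of 11 enteroendocrine markers, all detected, was 763.5 to 804.5 in control males, against 470.5 to 593.2 in control females, 604 to 676 in dsxRNAi males and 555.6 to 592.4 in dsxRNAi females. That of 16 visceral muscle markers was 5233 to 5281 in control males, 4528 to 4839 in control females, 4405 to 4857 in dsxRNAi males and 4378 to 5729 in dsxRNAi females. That of fat body and hemocyte markers, of which 8 were tested, was 93.37 to 155 in control females, 23.64 to 51.75 in dsxRNAi females, 7.183 to 11.71 in control males and 4.206 to 14.01 in dsxRNAi males. All 3 tested trachea markers were lower in dsxRNAi males than in control females, with sums of 10.49 to 12.08 and 14.58 to 19.59. The control male 1 library held 12663 counts of marker genes of the male accessory gland, where each of the other 11 libraries held 788 to 1251, and with that library left out of the rule 134 of the 155 genes were still members. The part of these markers in the results was not tested.

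Of the 155 genes, 148 were annotated as protein-coding, 6 as non-coding RNA and 1 as a pseudogene, and 89 had no name beyond a CG or CR number. On normalised CPM the control male level was a median of 1.98 times that of control females, with quartiles of 1.66 and 2.58, and a median of 1.67 times that of dsxRNAi males, with quartiles of 1.43 and 2.08. Only 38 genes had both ratios of the rule at 2 or more, and 8 had both at 3 or more. The mean CPM was under 10 for 78 genes and 100 or more for 27. At the edge of the rule, CG9674 and CG14221 lay just inside, with a smaller ratio of 1.502 each, and ItgaPS4 with 1.506, while Mal-A2 with 1.499, CG2065 with 1.497 and NPFR with 1.496 lay just outside. The heat map of levels per library shows the control male libraries apart from the other 9 for most genes.

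**Figure D1:**
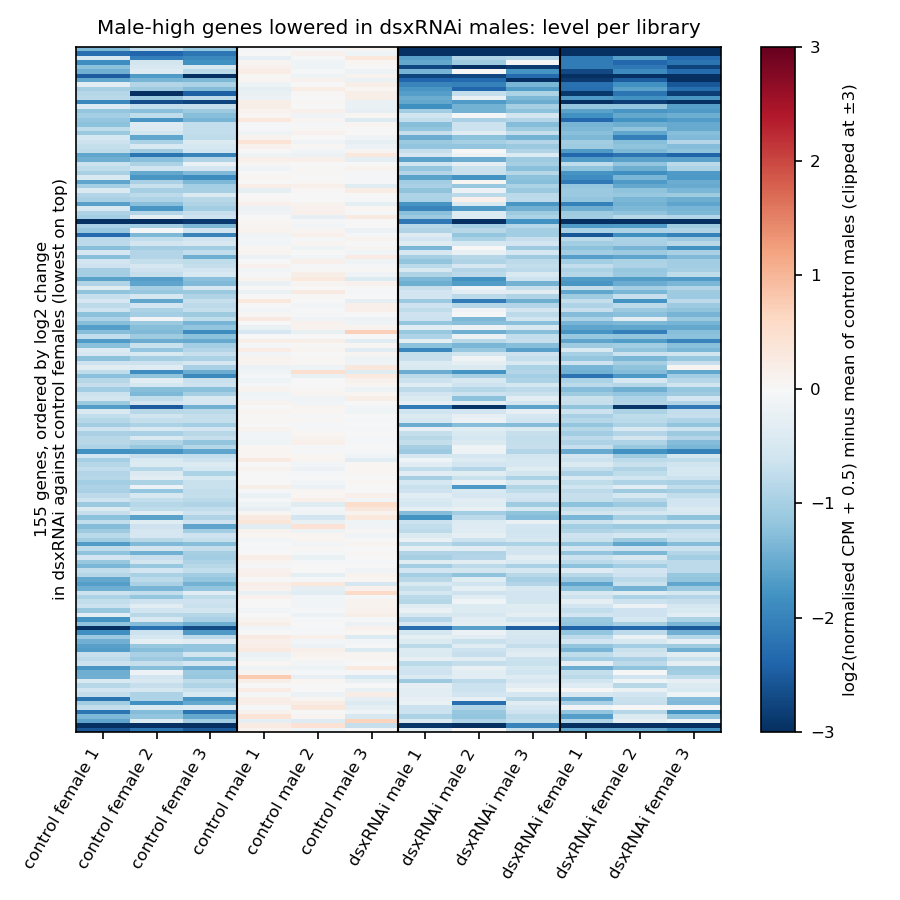
Level of each of the 155 genes (rows) in each of the 12 libraries (columns), as log2(normalised CPM + 0.5) minus the mean of the 3 control male libraries, with colours clipped at ±3. Rows are ordered by the fitted log2 change of dsxRNAi females against control females, with the lowest on top. Blue is lower than control males.

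In dsxRNAi females, few of the genes came near the control male level. All 3 dsxRNAi female libraries lay below all 3 control male libraries for 146 of the 155 genes (94.2%), where 21.5% of all tested genes showed this pattern. For 121 genes (78.1%, against 5.36% of all tested genes), all 9 libraries of the other groups lay below every control male library. The rule chose control males for being above control females and dsxRNAi males, so that both counts were bound to exceed their background, and nothing is read from the excess.

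Among the genes with the largest ratios, CG15263, a gene without a given function, had levels of 1291, 1345 and 1506 in control males. It had 164, 292 and 213 in control females, 282, 448 and 249 in dsxRNAi males and 254, 268 and 239 in dsxRNAi females. The control male mean was 6.18 times the control female and 4.23 times the dsxRNAi male mean, and the other 3 groups overlapped one another. Rph, which encodes Rabphilin, a protein of synaptic vesicles, was at 20.7, 18.9 and 19.7 in control males. Its other levels were 2.11, 2.01 and 2.25 in control females, 4.11, 2.05 and 5.23 in dsxRNAi males and 1.65, 1.5 and 1.49 in dsxRNAi females. The control male mean was 9.31 times the control female and 5.2 times the dsxRNAi male mean, and Rph overlaps the gene ras on the opposite strand. CG6026 was close to undetected outside control males, with 226, 257 and 113 raw counts there against 0, 1 and 2 in control females, 1, 4 and 0 in dsxRNAi females and 5, 0 and 24 in dsxRNAi males. No ratio is given for it because so few counts lie outside control males, and none of its 3 tested contrasts was called.

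The first tested comparison asked whether the genes changed under dsxRNAi in females, where the male form of Doublesex is not made. Of the 155 genes, 9 fell and 1 rose in dsxRNAi females against control females, and 145 were not called. The share that fell was 5.81%, against 1.55% of all tested genes, and the share that rose was 0.645%, against 1.91%. The fitted log2 change was below 0 for 99 genes and above 0 for 56, with a median of -0.13, against 0.00 for all tested genes. At an unadjusted p under 0.05, 32 were lower and 3 higher. The shares of all tested genes at that threshold were not counted, so nothing is read from these numbers. Without any threshold on p, dsxRNAi female libraries lay entirely below control females for 36 genes (23.2%, against 8.17% of all genes) and entirely above for 3 (1.94%, against 8.86%). The fat body and hemocyte markers, none of them among the 155 genes, had a median log2 change of -1.47 in the same comparison, with 2 of 8 called lower, and their part in the female changes was not tested. Low control females were part of the rule, a choice that favours a rise over a fall in females measured anew. Low dsxRNAi males were part of it too, which favours genes lowered with the dsxRNAi construct or stock in both sexes, and so a fall. The size of either effect was not tested, so nothing is read from the excess of genes that fell.

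Among the genes that fell, the 5 described first lay lower in the dsxRNAi libraries of both sexes than in any control female library. CG15169, identifier FBgn0032734, whose function is not annotated, lies at chr2L:18991020-18992409 on the plus strand of dm6. Its level was 12.3, 18.4 and 14.2 in control females and 1.32, 2.11 and 1.96 in dsxRNAi females, and 31.3, 31.6 and 33.9 in control males against 3.18, 3.39 and 3.25 in dsxRNAi males. No library of one genotype reached those of the other within either sex. Between the female groups it fell by 3.06 on the log2 scale (95% interval -3.43 to -2.68, adjusted p = 8.58e-07), and dsxRNAi males were lower than control females by a log2 value of -2.19 (adjusted p = 3.42e-06).

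CG14661 (FBgn0037288, chr3R:4953506-4955252, minus strand), annotated as Jhbp3 of the family of juvenile hormone binding proteins, showed the same order at low counts. It had 67, 52 and 69 raw counts in control females, 6, 9 and 11 in dsxRNAi females, 381, 420 and 368 in control males and 6, 13 and 17 in dsxRNAi males. Both dsxRNAi groups lay below control females without overlap. It fell by 2.77 in dsxRNAi against control females (95% interval -3.43 to -2.12, adjusted p = 0.00017), and the log2 difference of dsxRNAi males from control females was -2.12 (adjusted p = 0.000364).

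Cyp6a2, a P450 enzyme known from insecticide resistance, had levels of 32.9, 55.8 and 55.4 in control females and 17.8, 17.2 and 10.9 in dsxRNAi females. In males it had 85.7, 71.3 and 77.7 in controls and 11.4, 5.15 and 10.3 under dsxRNAi. The lowest control female library was above every dsxRNAi library of either sex. Its log2 change was -1.65 in females (adjusted p = 0.0178), and dsxRNAi males were lower than control females by a log2 value of -2.43 (adjusted p = 0.000738). The female call was lost when dsxRNAi female 2, dsxRNAi female 3 or control female 3 was left out, with an adjusted p of up to 0.0676. Cyp6a2 lies inside Epac on the same strand, and reads of the 2 genes may not have been fully separated.

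CG15528, with no annotated name, had levels of 4.11, 4.64 and 4.82 in control females, 1.37, 1.96 and 1.17 in dsxRNAi females, 13.6, 14.4 and 11.4 in control males and 2.11, 2.21 and 0.975 in dsxRNAi males. Again both dsxRNAi groups lay below both control groups. Its log2 change was -1.59 in females (adjusted p = 0.00379) and its difference between dsxRNAi males and control females -1.35 (adjusted p = 0.00293).

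The gene sfl encodes sulfateless, an enzyme that sulfates heparan sulfate chains on cell surface proteins. Its level was 68.2, 81.7 and 77.6 in control females, 53.3, 47.8 and 45.3 in dsxRNAi females, 122, 115 and 98.7 in control males and 48.4, 49.1 and 51 in dsxRNAi males. The dsxRNAi groups overlapped each other and lay below both control groups. It fell by 0.64 in females (95% interval -0.84 to -0.43, adjusted p = 0.00195) and differed by -0.62 between dsxRNAi males and control females (adjusted p = 0.000786). Within each sex, dsxRNAi libraries were thus lower than control libraries for these 5 genes, but in males the rule had required this. The female calls of CG15169, CG14661, CG15528 and sfl held when any 1 of the 6 female libraries was left out.

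The other calls described in females were lost when single libraries were left out. CG4302, annotated as the UDP-glycosyltransferase Ugt49B1, fell by 0.72 (adjusted p = 0.0134) from 247, 317 and 250 in control females to 166, 182 and 146 in dsxRNAi females, without overlap, and the call was lost without dsxRNAi female 1 or 3, with an adjusted p of up to 0.0695. CG12868 fell by 0.53 (adjusted p = 0.0327), a call that held only in the fit without control female 2, with an adjusted p of up to 0.149 in the other fits. CG9626 fell by 0.36 (adjusted p = 0.0495), a call lost without dsxRNAi female 1 or 2 or control female 2 or 3, with an adjusted p of up to 0.178.

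CG3739 was the exception in the other direction. Its level was 342, 452 and 353 in control females and 687, 700 and 563 in dsxRNAi females, against 2190, 1840 and 2049 in control males and 1533, 2008 and 1254 in dsxRNAi males. The female groups did not overlap, and the male groups overlapped on this scale, so the gene did not meet the rule on normalised CPM. It rose by 0.76 in females (95% interval 0.40 to 1.13, adjusted p = 0.025). This call was lost without dsxRNAi female 1 or 2 or control female 1 or 3, with an adjusted p of up to 0.11.

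**Figure D2:**
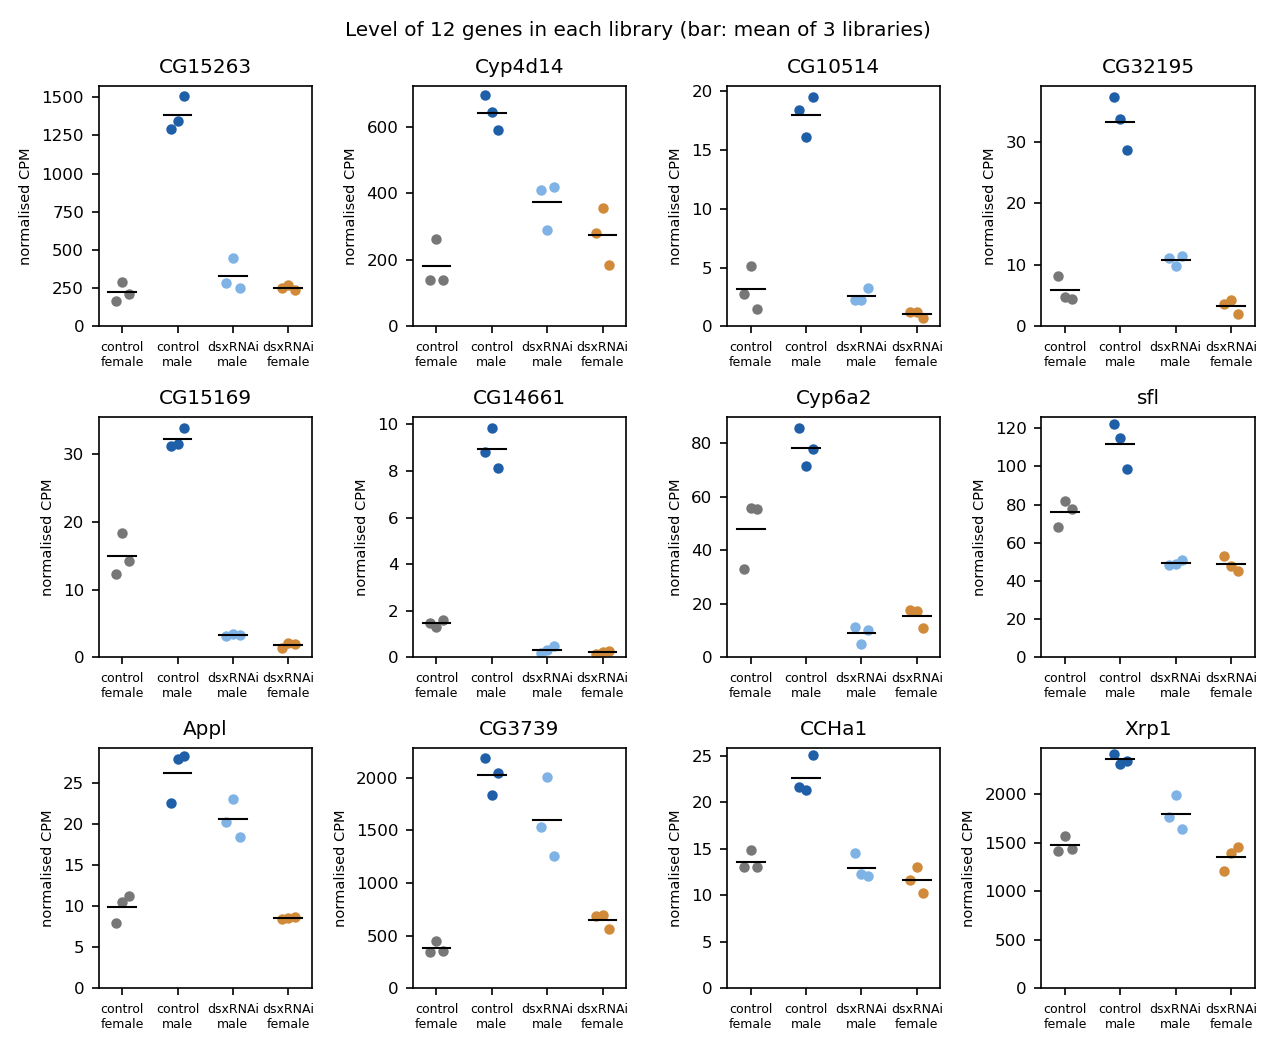
Level of 12 of the genes in each library, in normalised CPM on linear axes that start at 0; each point is 1 library and each bar the mean of 3. CG15169, CG14661, Cyp6a2 and sfl lie lower in both dsxRNAi groups than in control females, while Appl and CG3739 lie higher in dsxRNAi males than in either female group.

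The second comparison set dsxRNAi males beside control females, to ask whether the genes had come down to the control female level. Both groups supplied values to the rule, which required each to lie below control males, so that the calls and shares describe chosen genes and nothing is read from their distance to the background. Of the 155 genes, 32 were higher in dsxRNAi males than in control females, 10 were lower and 113 were not called. The share that was higher was 20.6%, against 13.1% of all tested genes, and the share that was lower was 6.45%, against 13.4%. The median log2 difference was 0.23, and 103 genes lay above 0. Without a test, dsxRNAi males lay wholly above control females for 43 genes (27.7%, against 19.6% of all tested genes) and wholly below for 11 (7.1%, against 21.5%). Of the 76 genes that met the rule on normalised CPM, 10 (13.2%) were higher, a share next to the 13.1% of all tested genes, and 8 (10.5%) were lower. The count of 32 dropped to 18 without control female 3, and 20 of the 42 calls held whichever of the 6 libraries was left out.

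The genes above control females included several on the X chromosome. Appl, the fly homologue of the amyloid precursor protein, had levels of 22.6, 28 and 28.3 in control males and 20.3, 23.1 and 18.5 in dsxRNAi males, against 7.96, 10.5 and 11.3 in control females and 8.47, 8.52 and 8.73 in dsxRNAi females. The male groups overlapped and lay apart from the female groups. Appl was higher in dsxRNAi males than in control females by 1.05 on the log2 scale (adjusted p = 0.000219) and lower in dsxRNAi females than in dsxRNAi males by a value of -1.26 (adjusted p = 0.000211). CG3703 was at 6.18, 6.08 and 8.75 in control males, 4.76, 6.18 and 5.08 in dsxRNAi males, 2.02, 1.13 and 1.34 in control females and 0.952, 1.1 and 0.893 in dsxRNAi females. Here too the sexes were apart and the male groups overlapped, with log2 differences of 1.83 for dsxRNAi males against control females (adjusted p = 0.000184) and -2.44 for dsxRNAi females against dsxRNAi males (adjusted p = 9.33e-05).

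CG15343 and CG1673, annotated as Bcat, the aminotransferase of branched-chain amino acids, were also X-linked and higher in dsxRNAi males than in control females, by 1.06 (adjusted p = 0.00153) and 1.15 (adjusted p = 0.000974). The X-linked tw, a protein O-mannosyltransferase gene, was higher by 1.14 (adjusted p = 0.00305), and it overlaps the gene CG13360 on the opposite strand, also 1 of the 155. In all, 22 of the 155 genes (14.2%) were X-linked, against 16.7% of all tested genes. Of these 22 genes, 10 (45.5%) were higher in dsxRNAi males than in control females, against 22 of 133 autosomal ones (16.5%), where the shares over all tested genes were 12.4% on the X and 13.4% on autosomes. The difference between the X-linked and the autosomal shares was not tested. Males carry 1 X chromosome and females a pair, and the part of X dosage in these values was not tested.

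On the autosomes, CG31288, mdy and NKCC were among the genes above control females. NKCC, the cotransporter of sodium, potassium and chloride, had levels of 95.5, 88.7 and 99.6 in control males, 54.1, 47.9 and 48.6 in dsxRNAi males, 29.2, 37.5 and 38.9 in control females and 41, 31.5 and 38 in dsxRNAi females. The dsxRNAi males lay between the control sexes without overlap, with a log2 difference of 0.51 from control females (adjusted p = 0.00787). The gene mdy, which encodes the diacylglycerol acyltransferase that makes triglyceride, was higher by 0.94 (adjusted p = 0.0405), a call that held only in the fit without control female 2 and otherwise reached an adjusted p of 0.13. The genes that were lower than control females included Cyp6a2, CG15169, CG14661, CG15528 and sfl, described above, and Gbp1, CG12594, LRP1 and CG10178.

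LRP1, a receptor of the low density lipoprotein receptor family, separated dsxRNAi males from all other groups. Its level was 5.5, 6.72 and 5.94 in dsxRNAi males, 8.68, 11.4 and 9.15 in control females, 9.61, 9.92 and 10.1 in dsxRNAi females and 14.7, 13.1 and 15.5 in control males. The dsxRNAi males were lowest and the female groups overlapped. Its dsxRNAi males differed from control females by a log2 value of -0.69 (adjusted p = 0.00146), and dsxRNAi females lay above them by 0.71 (adjusted p = 0.00296). CG10178, annotated as the UDP-glycosyltransferase Ugt301D1, also differed between dsxRNAi males and control females, by a log2 value of -0.36 (adjusted p = 0.0101).

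The third comparison was between the sexes under dsxRNAi. Of the 155 genes, 36 were lower in dsxRNAi females than in dsxRNAi males and 2 were higher, LRP1 and Reg-5, while 117 were not called. The call of Reg-5 (log2 difference 0.78, adjusted p = 0.0338) held only in the fit without dsxRNAi male 3, with an adjusted p of up to 0.137 otherwise. The lower share was 23.2%, against 7.06% of all tested genes, and the higher share was 1.29%, against 7.76%. The median log2 difference was -0.36, against 0.01 for all tested genes. Low dsxRNAi males were part of the rule, and the comparison shares its groups with the others above. The rule also chose genes higher in control males than in control females, which favours genes still lower in females under dsxRNAi. Nothing is therefore read from the distance of these shares to the background. Of the 38 calls, 22 held whichever of the 6 libraries was left out, and among the 76 genes that met the rule on normalised CPM 14 (18.4%) were lower and 0 higher, with LRP1 and Reg-5 outside these 76. CG32195 had a log2 difference of -1.72 (adjusted p = 0.00389), Rph of -1.29 (adjusted p = 0.0076) and CG12868 of -0.99 (adjusted p = 0.000544).

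**Figure D3:**
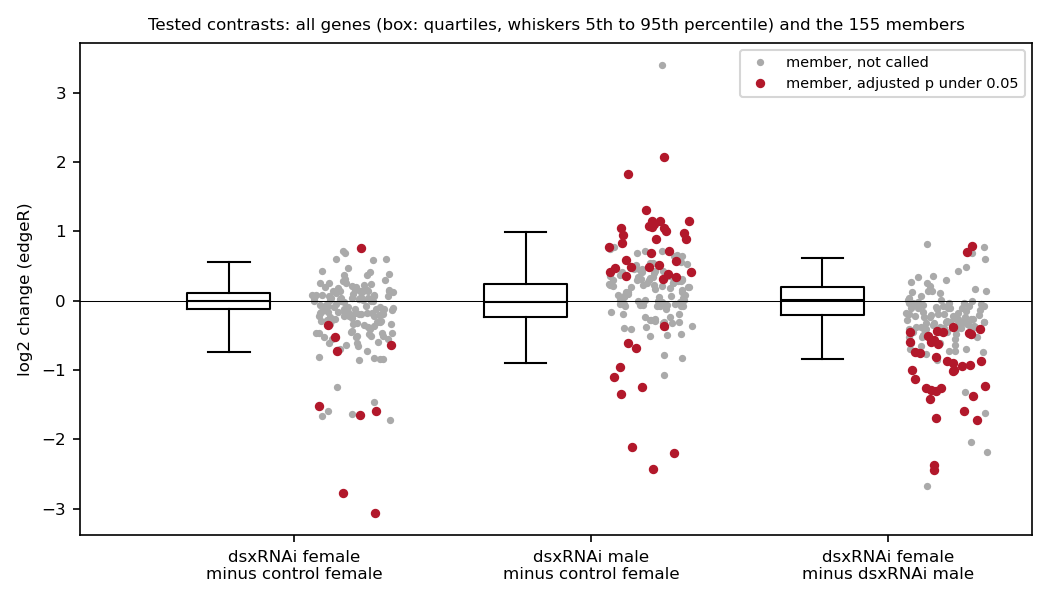
Fitted log2 changes (edgeR) in the 3 contrasts. Boxes show quartiles and whiskers the 5th to 95th percentile of all 9686 tested genes, and points the 155 genes, in red where the adjusted p is under 0.05; their medians are -0.13, 0.23 and -0.36 from left to right.

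The gene family with the most members among the groups described here was that of the ecdysteroid kinase-like genes. They were recognised by their RefSeq synonyms and encode likely kinases of small molecules, of which a silkworm member phosphorylates ecdysteroids. Of 51 such genes in the table, 40 had a mean CPM of at least 1 and 13 were among the 155 genes, which is 32.5% of the 40, against 1.88% of all genes at that level. The family was singled out after its values were seen, and the share has no test. A cluster of 26 family genes spans 61 kb on chromosome arm 3R, from 25270209 to 25331203 on dm6. Of its 22 genes with a mean CPM of at least 1, 8 were among the 155 (36.4%): CG11878, CG10514, CG31104, CG31097, CG31288, CG13659, CG31436 and CG10553. They lie within 44.3 kb, interspersed with other family genes. Genes of a family can share reads, and how multiply mapped reads were counted is not given in the sources used here, so that values of single genes in the cluster are uncertain.

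Within the cluster, levels differed between neighbours. CG10514 was at 18.4, 16.1 and 19.5 in control males, 2.78, 5.14 and 1.48 in control females, 2.25, 2.26 and 3.25 in dsxRNAi males and 1.21, 1.2 and 0.695 in dsxRNAi females. Its control males stood far above all other libraries, with means 5.73 times the control female and 6.95 times the dsxRNAi male mean, and dsxRNAi females lay below control females without overlap, with an adjusted p of 0.0588. CG11878 had 1160, 1082 and 1006 in control males, 385, 459 and 405 in dsxRNAi males, 755, 364 and 639 in control females and 425, 259 and 430 in dsxRNAi females. The 3 groups other than control males overlapped one another in part, and none of its contrasts was called.

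CG31288, in contrast, was at 413, 367 and 323 in control males and 258, 303 and 294 in dsxRNAi males, against 157, 147 and 133 in control females and 164, 182 and 140 in dsxRNAi females. Its dsxRNAi males lay between the control sexes, above control females by a log2 value of 0.97 (adjusted p = 0.00019) and with dsxRNAi females lower than them by -0.81 (adjusted p = 0.00131). CG31104 had 903, 858 and 757 in control males, 516, 780 and 506 in dsxRNAi males, 356, 422 and 436 in control females and 377, 321 and 380 in dsxRNAi females. Its dsxRNAi males were also above control females, by 0.57 (adjusted p = 0.0196), a call lost without control female 1 or dsxRNAi male 2, with an adjusted p of up to 0.0651. The male groups of CG31104 overlapped, through dsxRNAi male 2.

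Outside the cluster, CG32195 on arm 3L was at 37.3, 33.7 and 28.7 in control males, 11.1, 9.77 and 11.5 in dsxRNAi males, 8.22, 4.82 and 4.45 in control females and 3.64, 4.22 and 1.94 in dsxRNAi females. The dsxRNAi males lay between the control sexes, above control females by 0.88 (adjusted p = 0.0363), a call that held only in the fit without control female 1 and otherwise reached an adjusted p of 0.12. Over the 13 family members, none was called in the comparison of dsxRNAi with control females, 3 were higher in dsxRNAi males than in control females (13.1% of all tested genes were) and 5 were lower in dsxRNAi females than in dsxRNAi males (7.06% of all tested genes were). Of the 30 tested family genes outside the 155, 9 were higher and 8 lower in these comparisons, and 1 rose in dsxRNAi against control females. The median log2 change of the 13 in females was -0.41, and 6 of them met the rule on normalised CPM.

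The 14 other expressed genes of the cluster are those that did not meet the rule. Their difference from the cluster genes that met it was therefore fixed by the choice. On normalised CPM, the ratio of control males to control females ran from 0.879 to 1.85 over the 14 and exceeded 1 for 10, and that of control males to dsxRNAi males ran from 0.798 to 3.5 and exceeded 1 for 7. Both exceeded 1 for 5 of the 14 on this scale, and for 11 of the 14 on the unscaled CPM of the rule. One of them, CG31300, named here after its values were seen, was at 280, 259 and 238 in control males and 290, 374 and 311 in dsxRNAi males, against 173, 166 and 175 in control females and 227, 193 and 211 in dsxRNAi females. It was male-high without being lower in dsxRNAi males.

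**Figure D4:**
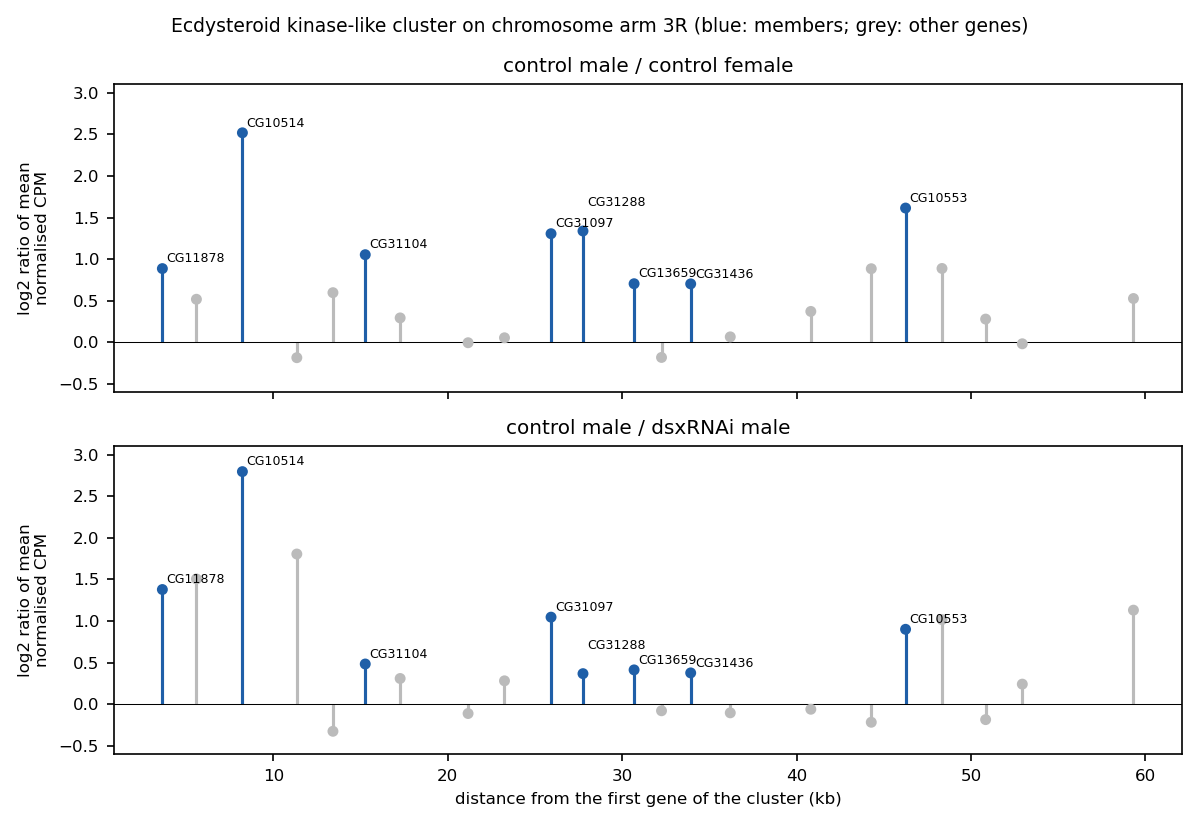
Ecdysteroid kinase-like genes with a mean CPM of at least 1 in the cluster on arm 3R, by distance in kb from the first gene of the cluster. Each stem is the log2 ratio of mean normalised CPM of control males to control females (top) or to dsxRNAi males (bottom); the 8 blue genes are among the 155 and the 14 grey genes are not, and the blue and grey genes are interspersed along the cluster.

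Other enzymes of small-molecule modification were fewer. Of 58 P450 genes with a mean CPM of at least 1, 5 were among the 155 (8.62%, against 1.88% of all genes at that level). They were Cyp6a2, Cyp4d14, Cyp6g1, Cyp12c1 and Cyp6a19, and the share has no test. Cyp4d14, on the X chromosome, was at 695, 645 and 589 in control males, 411, 291 and 419 in dsxRNAi males, 140, 262 and 140 in control females and 281, 356 and 185 in dsxRNAi females. Control males were highest, and dsxRNAi males lay above control females by 1.05 (adjusted p = 0.0217), a call lost without control female 1 or 3 or dsxRNAi male 1 or 3, with an adjusted p of up to 0.0793. Cyp6g1, known from resistance to DDT, had 842, 787 and 798 in control males and 404, 737 and 500 in dsxRNAi males, against 423, 370 and 445 in control females and 497, 365 and 312 in dsxRNAi females. Its dsxRNAi males were spread over nearly the whole distance between the control sexes, and none of its contrasts was called.

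Among the P450 genes as a whole, 4 of 73 tested rose and 8 fell in dsxRNAi against control females, so that Cyp6a2 was 1 of 8. Over all tested genes, 1.91% rose and 1.55% fell, and the difference was not tested. The UDP-glycosyltransferases, which couple sugars to foreign compounds and hormones, held 4 of the 155 genes: Ugt37b1, Ugt86Dd, CG4302 and CG10178. The list of this family held 14 genes with a mean CPM of at least 1. Of these, Ugt37b1 and Ugt86Dd were among the 155 (14.3%, against 1.88% of all genes at that level). CG4302 and CG10178 were not on that list. CG10178 was at 29.7, 28.4 and 29.6 in control males and 10.1, 11.8 and 11.5 in dsxRNAi males, below the 14, 14.8 and 14.1 of control females, while dsxRNAi females, at 12.7, 15 and 12.5, overlapped control females. The peroxiredoxins Prx2540-1 and Prx2540-2, which reduce peroxides, lie side by side and are near-identical copies, so their separate values are uncertain. Prx2540-1 was lower in dsxRNAi females than in dsxRNAi males by a log2 value of -1.24 (adjusted p = 0.0376), a call lost without dsxRNAi male 2 or any 1 dsxRNAi female library, with an adjusted p of up to 0.109. Its dsxRNAi male 2 library, at 12.6, lay above all control males, which were at 12.2, 12.4 and 11.7.

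Among hormones and signalling genes, CCHa1, a peptide hormone of enteroendocrine cells, was at 21.6, 21.3 and 25.1 in control males, 14.5, 12.3 and 12.1 in dsxRNAi males, 13, 14.9 and 13 in control females and 11.6, 13 and 10.3 in dsxRNAi females. Only control males stood apart, and no contrast was called. The gene 7B2, whose product assists the convertase that cuts hormone precursors, had levels of 16.4, 15.5 and 17.1 in control males and of 8.79 to 13 in the other groups. Both are expressed in enteroendocrine cells, and CCHa1 is itself 1 of the 11 markers summed above. Without it, the sum of the other 10 was 738.4 to 782.9 in control males, 457.5 to 578.2 in control females, 591.9 to 663.7 in dsxRNAi males and 545.3 to 580.8 in dsxRNAi females, and the part of this in the levels of CCHa1 and 7B2 was not tested. Of the TNF pathway, the ligand gene egr was at 22, 21.6 and 26.4 in control males and 17.2, 9.67 and 18.4 in dsxRNAi males, and Traf4, an adaptor of TNF receptors, at 18.7, 13.8 and 18.2 and at 8.06, 6.92 and 9.13. Neither was called in a tested contrast, in which Traf4 was within 0.17 of 0 on the log2 scale. Gbp1, a growth-blocking peptide, differed between dsxRNAi males and control females by a log2 value of -1.25 (adjusted p = 0.0373), at levels under 5, and the call held only in the fit without dsxRNAi male 3, with an adjusted p of up to 0.124 otherwise.

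Of the 155 genes, 3 were placed in the role group of transcription factors, which may not be complete. Xrp1, a bZIP factor of the stress response, was the most abundant of them, at 2419, 2319 and 2350 in control males, 1763, 1990 and 1643 in dsxRNAi males, 1419, 1571 and 1433 in control females and 1210, 1395 and 1457 in dsxRNAi females. The dsxRNAi males lay between the control sexes without overlap, and dsxRNAi females were lower than dsxRNAi males by a log2 value of -0.41 (adjusted p = 0.0218), a call lost without dsxRNAi female 1 or dsxRNAi male 2, with an adjusted p of up to 0.0721. The other 2 of this group, bin and H2.0, act in visceral muscle during development. For bin the levels were 6.13, 6.93 and 6.39 in control males, 5.52, 3.97 and 4.52 in dsxRNAi males and 2.82 to 3.9 in the female groups, so that dsxRNAi males lay between the control sexes. The summed visceral muscle markers, given above, were also higher in control males than in control females and dsxRNAi males, and their part in the level of bin was not tested.

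Of the 155 genes, 7 were placed in the role group of transporters and channels, which may not be complete. Oatp30B and SLC22A, carriers of organic anions and organic ions, were at 42.9, 45.7 and 56.9 and at 52.5, 53.8 and 54.3 in control males. In dsxRNAi males they were at 23.8, 26.3 and 22.9 and at 25.6, 30.9 and 27.2, within or next to the control female ranges of 17.1 to 25.8 and 20.5 to 29.7. The vesicular transporter gene prt was at 2.5, 2.71 and 2.19 in control males and under 0.9 in every other library. For all 7, no change was called in dsxRNAi against control females. Enzymes of amino acid metabolism included Ggt-1, P5cr, Bcat and the glutamate synthase CG9674. CG9674, at 705, 722 and 821 in control males and 651, 561 and 574 in dsxRNAi males, was higher in dsxRNAi males than in control females by 0.41 (adjusted p = 0.0494), a call lost without control female 1 or any 1 dsxRNAi male library, with an adjusted p of up to 0.135.

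Some other genes also lay close together. With starts less than 20 kb apart, 37 of the 155 genes (23.9%) stood in 15 runs of 2 or more, the kinase-like run of 8 included. The same share was not counted for all expressed genes, so nothing is read from it. Apart from the kinase-like run, only CG10005, CG3397 and Ect3 on 3R formed a run of 3. Ect3 overlaps the hormone gene Tk on the opposite strand. It had levels of 27.8, 26.7 and 27.5 in control males, 17.5, 26.8 and 15.7 in dsxRNAi males, 11.3, 13.3 and 12.8 in control females and 10.8, 11.2 and 10.1 in dsxRNAi females, and was higher in dsxRNAi males than in control females by 0.68 (adjusted p = 0.00922). The male groups of Ect3 overlapped, through dsxRNAi male 2. In all, 62 of the 155 genes overlapped another gene of the table, 22 of them one with a mean CPM of at least 10. The library kit keeps the strand, but the strand setting of the counting is not given in the sources used here. None of the 155 genes belonged to the lists of starch and sugar digestion, lipid digestion and transport or digestive serine proteases. None belonged to those of digestive lysozymes, heat shock proteins or regional transcription factors of the midgut. Genes were put on the lists by symbol, so that other genes of such families may be among the 155. In that order, these lists held 20, 27, 32, 5, 12 and 26 genes with a mean CPM of at least 1. As only 1.88% of all genes at that level were among the 155, nothing is read from the absence.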

How the data were processed

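The data are raw read counts per gene, deposited by the authors as 1 table for 12 libraries of poly-A selected RNA. Reads were aligned with TopHat2 2.0.11 to dm6 and counted with featureCounts, per the submitters' processing notes. Library totals ran from 36212113 to 45068874 counts, and 171 rows without a symbol held 2.17% of counts. All 12 columns of values were used.

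Counts were fitted with edgeR 4.0.16 in R 4.3.3 (quasi-likelihood test, TMM scaling, minimum count of 10, robust dispersion, 4 group means, all 12 libraries). All 155 genes passed this filter, which kept 9686 genes. The test was checked on 1 simulated data set of 9577 tested genes, with 200 genes changed in dsxRNAi females. It called 74% of those changed by a log2 value of 1 and 39% of those changed by 0.585, with 13 false calls. The 155 genes, the gene lists, the role groups and the tests were chosen with earlier results of these data known. Named genes were those with the largest ratios or levels, the smallest adjusted p in each tested contrast, list members, threshold neighbours, runs of neighbouring genes and dsx. Other named genes, such as CG6026, CG31300, tw, egr, Traf4, Gbp1, bin, prt, P5cr, Ggt-1 and CG12594, were chosen after their values were seen. Positions are from an Ensembl annotation on dm6 coordinates, and gene family synonyms from RefSeq. DESeq2 1.42.0, other scalings, filters, thresholds, members and a replicate block were alternatives. The replicate numbers did not pair the libraries (correlations of deviations from -0.299 to 0.208). Promoter motifs were not analysed here. One called gene is counted but not reported here by name. Figures were drawn with matplotlib 3.10.9.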

Additional observations from a re-analysis of the deposited data

Results flagged for a closer look

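For 3 of the 155 genes (1.94%, against 8.86% of all tested genes), every dsxRNAi female library lay above every control female library. In males the rule had required dsxRNAi libraries below controls. The log2 change in females was 0.76 for CG3739, 0.59 for Reg-5 and 0.38 for Ggt-1, and of these only that of CG3739 was called (adjusted p = 0.025). Whether the female change differed from the male change was not tested for these genes, since the male change was part of the choice. On normalised CPM the male groups of CG3739 and Ggt-1 overlapped.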

How the results depend on the processing

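The number of genes under the rule was 155. It was 38 with a ratio of 2, 96 with a CPM floor of 5 and 78 on TMM-scaled CPM, of which 76 were shared, and 150 to 225 with 1 library left out. For dsxRNAi against control females, the 9 genes that fell and 1 that rose became 21 that fell with DESeq2, 5 and 0 at an adjusted p under 0.01, 5 and 0 with a log2 change of at least 1, and 6 to 11 and 0 to 1 with a library left out. Among genes that also met the rule on TMM-scaled CPM, or with control male 1 left out (both added after the data were seen), 0 rose. For dsxRNAi males against control females, the 32 higher and 10 lower became 16 higher in a fit of only the groups compared, 12 higher at an adjusted p under 0.01, 12 and 6 with a log2 change of at least 1, 18 to 32 and 8 to 12 with a library left out, and 10 higher among the 76 genes. For dsxRNAi females against dsxRNAi males, the 36 lower and 2 higher became 18 and 1 at an adjusted p under 0.01, 15 and 0 with a log2 change of at least 1, 26 to 36 and 1 to 2 with a library left out, and 14 and 0 among the 76 genes. Causes were not tested beyond what each alternative fixes by construction.

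With the replicate numbers as a block, although they did not pair the libraries, 6 fell and 1 rose in females, 37 were higher and 10 lower in dsxRNAi males than in control females, and 37 were lower and 2 higher in dsxRNAi females than in dsxRNAi males. The promoter motif search and its alternative window were not run. With 3 libraries a group and 78 of the 155 genes at a mean CPM under 10, small changes of low genes were often not detectable, and a gene without a call is not shown to be equal between groups.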
